A study of Mus musculus with 6 samples.

Results

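Fatty acid oxidation breaks fatty acids into acetyl-CoA, in mitochondria for most chain lengths and in peroxisomes for very long and branched chains. The set described here holds 34 genes: enzymes of both pathways, genes that activate or bind fatty acids, a ketone body enzyme, and the regulators Ppara, Ppard and Ppargc1a. They were chosen by name, with earlier results of these data known, so the list is no independent sample of the pathway. All 34 were found among the 57132 gene rows and passed the filter on low counts. By the place of work assumed for each product, 17 were counted as mitochondrial, 8 as peroxisomal, 1 as a ketone body enzyme and 3 as regulators. No gene was counted in more than 1 class, even where its product may work in several places. The other 5 (Acsl1, Slc27a2, Fabp1, Acot1 and Vnn1) belong to none of those classes and were kept apart as activation, binding and other targets.

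The RNA came from isolated glomeruli, the filtering units of the kidney, of mice whose labels give diabetic kidney disease (DKD). Floxed alleles of Setdb2 (Setdb2fl/fl) were common to all 6 samples. This gene encodes a putative histone H3 lysine 9 methyltransferase. The groups differed in Cre recombinase, which 3 samples lacked (Cre-/Setdb2fl/fl, here Cre_negative) and 3 carried (Cre+/Setdb2fl/fl, here Cre_positive). The series' design text places the question in podocytes, the epithelial cells around the glomerular capillaries. The sources used here give neither the diabetes model nor the Cre driver, nor the age and sex of the animals. They also do not say whether replicates are separate mice, so a p-value here reflects only the variation among these samples, which may be technical.

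PPAR alpha is a nuclear receptor that binds DNA together with a retinoid X receptor and raises transcription of fatty acid oxidation genes when fatty acids bind it. PPAR delta shares many of its targets, and PGC-1 alpha, the product of Ppargc1a, is a coactivator of both. In the kidney, fatty acid oxidation is a main source of energy for proximal tubule cells, which also express many of the genes described here.

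Of the 34 genes, 14 were called, which is 41.2% against 7.55% of all genes tested: 11 were lower and 3 were higher in the Cre_positive libraries at an adjusted p under 0.05 (edgeR's quasi-likelihood test, Benjamini-Hochberg adjustment over the 19927 genes tested), and 20 did not pass. The lower calls made up 32.4% of the set, against 3.82% of all genes tested, and the higher calls 8.82%, against 3.73%. The median log2 fold change was -0.36 over the 34 genes and -0.00089 over all genes tested. The 11 that fell were 7 mitochondrial enzymes (Cpt1a, Cpt2, Decr1, Hadha, Hadhb, Acadl and Acot2), the peroxisomal genes Eci2 and Pex11a, and Acot1 and Vnn1. The 3 that rose were the ketone body enzyme Bdh1, the acyl-CoA synthetase Acsl1 and the receptor gene Ppard. In whole glomerular isolates, fewer cells of a type and less RNA per cell cannot be told apart.

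The libraries held between 53571438 and 58807042 counts. Cre_positive replicate 2 had 24 counts of Xist, the long noncoding RNA of X inactivation, against 36474 to 47632 in the other 5 libraries. Setdb2 had 8.37 ± 1.62 CPM (counts per 1e+06 counts of a library) without Cre and 7.70 ± 0.371 CPM with it (SD, n = 3), a log2 fold change of -0.12 (95% interval -0.52 to 0.28, edgeR adjusted p = 0.738). Gene-level counts thus did not check the genotypes, and the groups are named by label throughout. Tubule RNA was abundant: 18 proximal tubule markers summed to 11558 to 12961 CPM in Cre_negative libraries against 16794 to 18178 CPM in Cre_positive libraries, and 12 podocyte markers to 637 to 726 and 862 to 963 CPM. Of the proximal tubule markers, 10 rose, none fell and 8 did not pass, with a median log2 fold change of 0.53. The fold change was above 0 for 16 and below 0 for 2. Slc22a6 was lower in every Cre_positive library (log2 fold change -0.71, edgeR adjusted p = 0.0553). In a separate list of 8 markers of the S3 segment of the proximal tubule, none was called, with 4 above 0 and 4 below. Their sum was nevertheless higher with Cre, at 759 to 1091 CPM in Cre_negative libraries against 1540 to 1646 CPM in Cre_positive libraries. Aadat alone was at 324 ± 147 and 880 ± 198 CPM (SD, n = 3). Of the 8, 2 lay wholly above and 2 wholly below in the Cre_positive libraries. Divided by the summed CPM of the 18 markers in the same library, 30 of the 34 were lower in all 3 Cre_positive libraries than in any Cre_negative one, Ppard was higher, and Bdh1, Acsl1 and Ppara overlapped. The marker sum itself was higher in the Cre_positive libraries, and under this division 59.9% of all genes tested were lower without overlap and 2.02% higher. The 30 include 4 genes (Acadm, Acads, Slc27a2 and Ppargc1a) whose fold change per CPM was above 0.

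Other markers moved with the genotype too, and their part in the results below was not tested. The 9 markers of injured tubule summed to 3818 to 11076 CPM in Cre_negative libraries against 1810.4 to 2028 CPM in Cre_positive libraries, with 6 lower, none higher and 3 not passing. The 8 macrophage markers summed to 184 to 335 CPM against 169 to 184 CPM, with 2 lower and 6 not passing. Glomerular endothelium markers rose in 7 of 8 cases, distal nephron markers in 4 of 8 and mesangium markers in 3 of 6, where 1 fell. Podocyte markers rose in 3 of 12 cases, and the other 9 did not pass. Of all genes tested, 3.73% were called higher and 3.82% lower. Fat cell RNA was at or near 0: the adipocyte genes Adipoq, Lep, Plin1, Retn and Ucp1 had at most 17 counts in any library. Of the remaining adipocyte markers, Cfd had at most 24 counts, and Lipe, a lipase gene that other cells also express, was lower.

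Among the 34 genes, Cre_negative replicate 2 stood apart within its group. It was the highest of the 6 libraries for 26 of the 34 genes, and Cre_positive replicate 1 was the lowest for 17. The standard deviation relative to the mean was larger in the Cre_negative group for 29 of 34 genes, with a median of 17.7% against 5.36%. Over all genes with at least 50 counts, Cre_negative libraries also differed more from each other. The chi-square per degree of freedom was 49.2 to 71.2 between Cre_negative pairs and 20.6 to 26.4 between Cre_positive pairs. By that measure Cre_negative replicate 1 was furthest from the rest of its group, at 61.3 and 71.2. Leaving out Cre_negative replicate 2 left 11 lower and 2 higher calls and moved the median log2 fold change of the 34 genes from -0.36 to -0.23, with 13 genes above 0 in place of 8. Without Cre_positive replicate 2, the library with little Xist, 4 were called lower and 1 higher. Without Cre_positive replicate 1 or 3, 5 were called lower, and the higher calls were 2 and 1. The plot of all members by library shows both features.

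**Figure D1:**
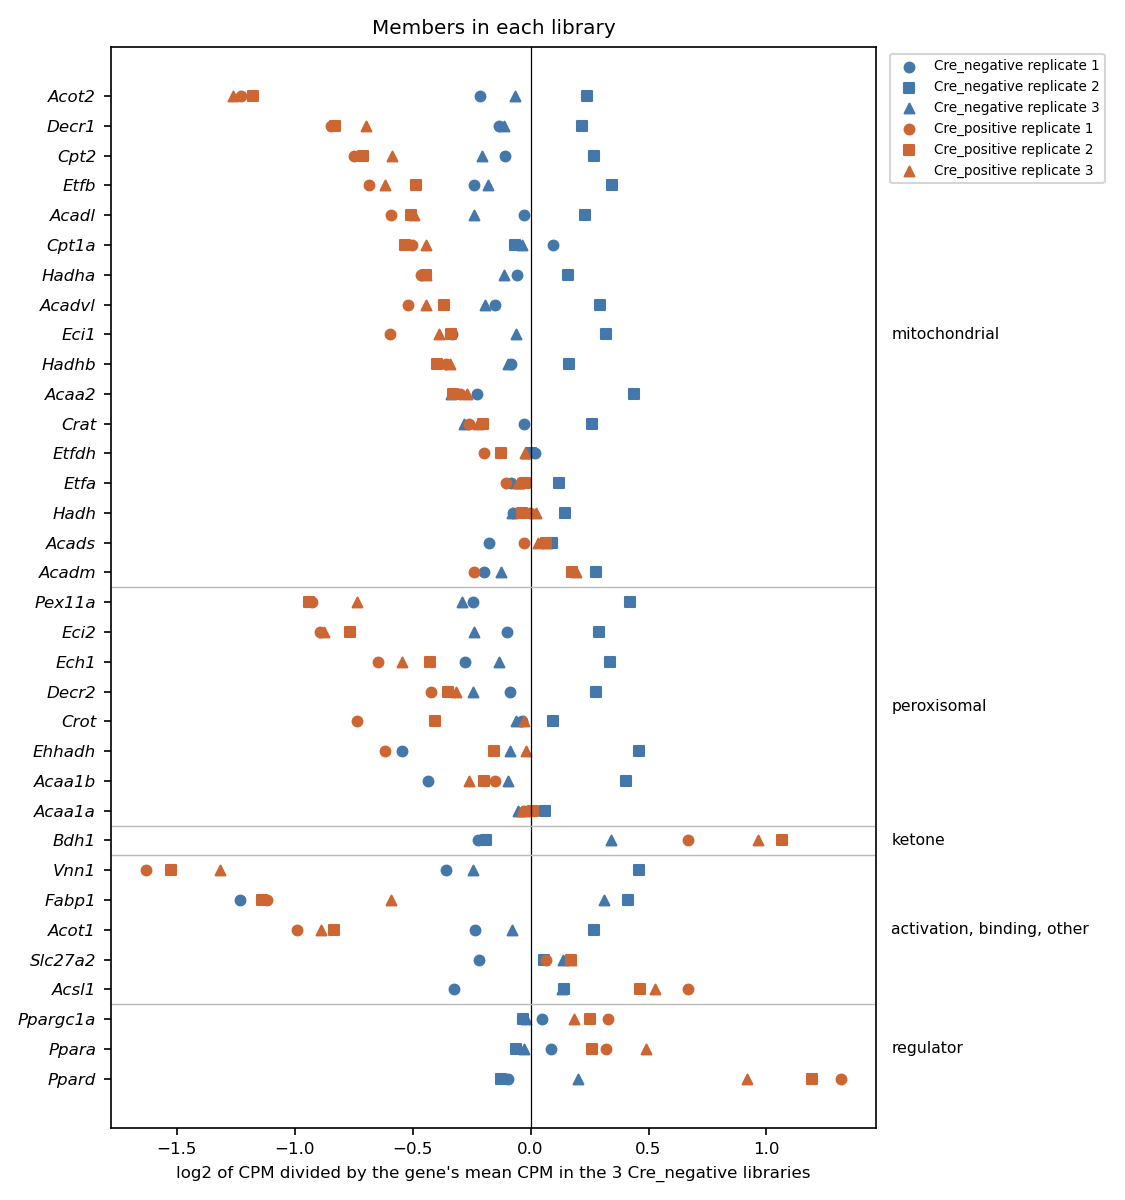
Each row is a gene and each point a library, placed at the log2 of its CPM divided by the gene's mean CPM in the 3 Cre_negative libraries; blue marks Cre_negative, orange Cre_positive, and shapes the replicates. The blue square, Cre_negative replicate 2, is the highest point for 26 of the 34 genes, and the orange points lie wholly left of the blue ones for 17 genes and wholly right for 5. Of all genes tested, 14.5% lay wholly below and 15.2% wholly above in the Cre_positive libraries.

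The promoters were examined because PPAR alpha is known to regulate fatty acid oxidation genes. Whether it acted on the members that fell was not tested. RefSeq promoter windows on GRCm38.p6 were found for 30 of the 34 genes, and the 250 bases before the start site were searched on both strands. PPAR and its partner bind direct repeats of AGGTCA-like units with a single base between them. The strict repeat, AGGTCA followed by N and AGGTCA, was in none of the 30 and in 0.0407% of the 27025 genes with a window. The looser repeat, AGGNCA followed by N and AGGNCA, was in Fabp1 alone (3.33% of the 30), against 0.400% of all genes, and the unit AGGTCA, which the repeats can contain, was in 5 (16.7%), against 15.8%. Among the 14 genes called, Cpt1a alone held a unit. The windows of Cpt1a (GRCm38.p6, chr19:3323051-3323300, plus strand) and Fabp1 (GRCm38.p6, chr6:71199629-71199878, plus strand) are shown 5′ to 3′ as the gene reads, with the matched bases in capitals. Both matches read on the opposite strand, with the unit beginning 94 bases before the start site in Cpt1a and the repeat beginning 67 bases before it in Fabp1. A further unit of Fabp1, 9 bases before the start, is left in lower case.
Cpt1a: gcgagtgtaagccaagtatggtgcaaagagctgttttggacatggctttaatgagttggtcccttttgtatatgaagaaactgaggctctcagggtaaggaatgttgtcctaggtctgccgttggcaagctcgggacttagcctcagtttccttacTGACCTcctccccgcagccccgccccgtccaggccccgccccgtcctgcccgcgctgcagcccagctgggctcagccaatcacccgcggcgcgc
Fabp1: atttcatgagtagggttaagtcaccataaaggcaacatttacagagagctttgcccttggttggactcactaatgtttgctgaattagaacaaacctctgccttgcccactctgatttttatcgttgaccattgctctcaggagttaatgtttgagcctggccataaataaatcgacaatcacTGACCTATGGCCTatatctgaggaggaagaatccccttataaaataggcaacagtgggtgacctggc
A match is a run of letters, not a measured binding site. Sites outside these windows were not searched. The 2 windows were picked for display after the search.

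The enzymes that bring long-chain fatty acids into mitochondria were lower in the Cre_positive libraries. Cpt1a (ENSMUSG00000024900) encodes the outer-membrane carnitine palmitoyltransferase that controls the rate of entry. It stood at 554, 495 and 505 CPM in Cre_negative replicates 1, 2 and 3 and at 366, 358 and 381 CPM in the Cre_positive ones. All 3 Cre_positive libraries lay below every Cre_negative library, and the log2 fold change was -0.49 (SE 0.078, 95% interval -0.67 to -0.32, adjusted p = 0.00855), or 0.710 times the Cre_negative level. Cpt2 (ENSMUSG00000028607), the inner-membrane enzyme that reforms acyl-CoA, had 218, 283 and 204 CPM in Cre_negative libraries against 139.7, 144 and 157 CPM in Cre_positive libraries. The groups did not overlap, and the log2 fold change was -0.68 (SE 0.12, adjusted p = 0.0144). The call of Cpt1a ended without Cre_positive replicate 2 (adjusted p = 0.0510) and that of Cpt2 with any single Cre_positive library left out (adjusted p up to 0.0679).

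Of the acyl-CoA dehydrogenases, which take the first step of each oxidation cycle and differ in chain length, 4 are members. Acadl and Acadvl had negative fold changes, and Acadm and Acads lay near 0. Acadl (ENSMUSG00000026003), for long chains, had 370.0, 443 and 319 CPM in Cre_negative libraries against 250.2, 266 and 268 CPM in Cre_positive libraries. Those groups did not overlap, and it fell by 0.53 on the log2 scale (SE 0.12, adjusted p = 0.0276). Acadvl, for very long chains, likewise lay lower in every Cre_positive library, at 426 ± 83.2 against 314 ± 16.2 CPM (SD, n = 3), with a log2 fold change of -0.44, but did not pass (adjusted p = 0.0776). Acadm, for medium chains, was at 608 ± 112 and 632 ± 101 CPM, and its log2 fold change of 0.06 had a 95% interval of -0.30 to 0.41. Acads, for short chains, was at 157 ± 15.5 and 159.7 ± 5.26 CPM, with an interval of -0.17 to 0.22. Outside the set, Acad9, which also acts on long chains and was named after its values were seen, had a log2 fold change of 0.19 (adjusted p = 0.160), and Acadsb, for branched short chains, was called higher. No relation to chain length was tested. The call of Acadl ended with any single Cre_positive library left out (adjusted p up to 0.107), and Acadvl passed without Cre_negative replicate 3 and with DESeq2 or limma voom (adjusted p down to 0.00855).

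Hadha (ENSMUSG00000025745) and Hadhb (ENSMUSG00000059447) encode the alpha and beta subunits of the trifunctional protein, which carries out the later steps for long chains. Hadha stood at 397, 461 and 382 CPM in Cre_negative libraries and at 299, 304 and 304 CPM in Cre_positive libraries. Hadhb stood at 276, 328 and 274 CPM and at 228, 222 and 231 CPM. Neither gene had a Cre_positive library within the Cre_negative range. The log2 fold change was -0.45 (SE 0.087, adjusted p = 0.0184) for Hadha and -0.37 (SE 0.087, adjusted p = 0.0386) for Hadhb. Both calls were lost with any single Cre_positive library left out (adjusted p up to 0.0873 and 0.142), and that of Hadhb also without Cre_negative replicate 2. Hadhb shared 52.8% of the 100-base windows of its longest coding transcript with Gm13910, which had 3100 to 4711 counts against 12159 to 18306 for Hadhb, so its counts are uncertain. Hadh, the dehydrogenase for shorter chains, was at 375 ± 34.3 and 374 ± 7.36 CPM (SD, n = 3), with a log2 fold change of -0.01 (95% interval -0.20 to 0.19).

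A reductase for unsaturated fatty acids and the thioesterases that split acyl-CoA fell as well. Decr1 (ENSMUSG00000028223), the mitochondrial dienoyl-CoA reductase, had 236, 302 and 240.3 CPM in Cre_negative libraries against 144, 146 and 159.9 CPM in Cre_positive libraries. It fell by 0.79 on the log2 scale (SE 0.11, adjusted p = 0.00402), with no overlap. Eci1, the mitochondrial enoyl-CoA isomerase, was at 97.9 ± 22.5 and 72.4 ± 6.69 CPM (SD, n = 3), did not overlap and did not pass (log2 fold change -0.44, adjusted p = 0.151). It passed with DESeq2 and without Cre_negative replicate 1. Acot2 (ENSMUSG00000021226), a mitochondrial acyl-CoA thioesterase, had 63.6, 87.1 and 70.4 CPM in Cre_negative libraries against 31.5, 32.5 and 30.7 CPM in Cre_positive libraries. Its Cre_positive level was 0.429 times the Cre_negative one, a log2 fold change of -1.22 (SE 0.11, 95% interval -1.48 to -0.96, adjusted p = 0.000781). Acot1 (ENSMUSG00000072949), its cytosolic counterpart, had 230.2, 327 and 257 CPM in Cre_negative libraries against 136, 152 and 147 CPM in Cre_positive libraries. It fell by 0.90 on the log2 scale (SE 0.12, adjusted p = 0.00487). Acot2 shared 17.1% of its 100-base transcript windows with Acot1, and Acot1 16.5% with Acot2, so reads may be split between them. The calls of Decr1, Acot2 and Acot1 held without each single library and under the 8 other settings tried.

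The other mitochondrial members did not pass. Etfa, Etfb and Etfdh pass electrons from the dehydrogenases to the respiratory chain. Etfb was at 324 ± 76.1 and 215 ± 15.0 CPM (SD, n = 3) without overlap, and its log2 fold change of -0.59 missed the threshold (adjusted p = 0.0553) but passed without any 1 of the Cre_negative libraries and with DESeq2, limma voom, upper-quartile factors or a filter of 1 CPM. Its transcript shared 65.2% of 100-base windows with the overlapping gene Gm45233, which had 32 to 84 counts. Etfa and Etfdh had log2 fold changes of -0.06 and -0.11. The thiolase Acaa2 was at 349.6 ± 108 and 284 ± 5.76 CPM, with 473 CPM in Cre_negative replicate 2 against 299 and 277 CPM in the other Cre_negative libraries, and a log2 fold change of -0.30. Crat, carnitine acetyltransferase, had one of -0.23. In all, 7 of the 17 mitochondrial genes fell and none rose, which is 41.2% called lower against 3.82% of all genes tested. The 10 others did not pass, the class median was -0.44, and 15 had a log2 fold change below 0.

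**Figure D2:**
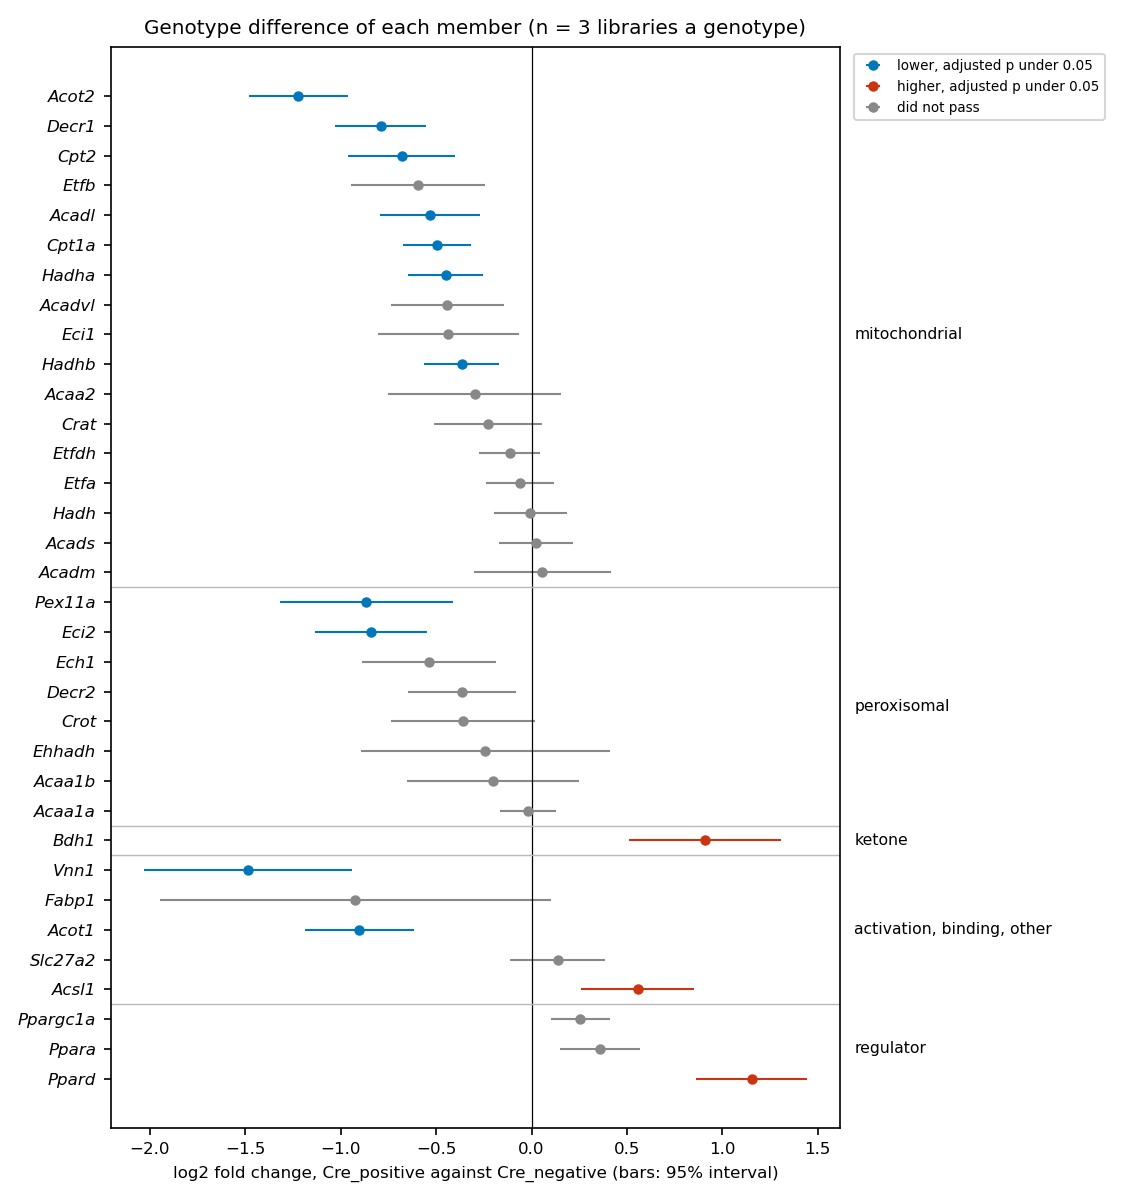
Each row is a gene; the point is the log2 fold change of Cre_positive against Cre_negative libraries (n = 3 each) and the bar its 95% interval, with blue for lower and red for higher at an adjusted p under 0.05 and grey for genes that did not pass. Acot2, Vnn1 and Acot1 are among the genes furthest left and Ppard and Bdh1 furthest right, while Hadh, Acadm, Acads and Acaa1a lie near 0.

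Of the 8 peroxisomal genes, 2 fell and none rose, while 6 did not pass, with a median of -0.36. The lower calls were 25% of this class, against 3.82% of all genes tested. Eci2 (ENSMUSG00000021417), an enoyl-CoA isomerase for unsaturated chains, had 145, 189.6 and 132 CPM in Cre_negative libraries against 83.6, 91.4 and 84.5 CPM in Cre_positive libraries. It fell by 0.84 on the log2 scale (SE 0.13, 95% interval -1.14 to -0.55, adjusted p = 0.00789), with no overlap. Pex11a (ENSMUSG00000030545), which takes part in the elongation and division of peroxisomes, had 60.8, 96.5 and 58.8 CPM in Cre_negative libraries against 37.9, 37.5 and 43.2 CPM in Cre_positive libraries. The groups did not overlap and the log2 fold change was -0.87 (SE 0.19, adjusted p = 0.0409). Its call ended without Cre_negative replicate 1, with any single Cre_positive library left out, and with no filter on low counts (adjusted p up to 0.141). That of Eci2 held with each library left out (adjusted p up to 0.0499).

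The rest of the peroxisomal class had smaller or more variable values. Ech1, a dienoyl-CoA isomerase, was lower in every Cre_positive library, at 481 ± 112 and 331 ± 25.2 CPM (SD, n = 3), but did not pass (log2 fold change -0.54, adjusted p = 0.0739). It passed without Cre_negative replicate 1 and with DESeq2 or limma voom. Decr2, the peroxisomal dienoyl-CoA reductase, had a log2 fold change of -0.36 (adjusted p = 0.122) without overlap and passed without Cre_negative replicate 3. Crot, which transfers medium-chain acyl groups to carnitine, was at 157, 197 and 256 CPM in Cre_positive libraries, against 250 to 279 CPM in Cre_negative ones. Ehhadh, the bifunctional enzyme and a widely used PPAR alpha target, ran from 553 to 1109 CPM in Cre_negative libraries against from 526 to 795 CPM in Cre_positive libraries, so its log2 fold change of -0.24 had an interval of -0.89 to 0.41. The thiolases Acaa1a and Acaa1b had log2 fold changes of -0.02 and -0.20. They shared 21.6% and 22.6% of their 100-base windows with each other. Acaa1a varied little, between 151 and 163 CPM over the 6 libraries.

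In the class of activation, binding and other targets, Vnn1 showed the largest fall of all 34. Vnn1 (ENSMUSG00000037440) encodes pantetheinase, which recycles the vitamin part of coenzyme A, and is a common marker of PPAR alpha activity. It had 139.6, 246 and 151 CPM in Cre_negative libraries against 57.7, 62.1 and 71.9 CPM in Cre_positive libraries. Every Cre_positive library lay below the lowest Cre_negative one, at 0.357 times the mean level (log2 fold change -1.49, SE 0.23, 95% interval -2.03 to -0.94, adjusted p = 0.0147). That call ended with any single Cre_positive library left out (adjusted p up to 0.0650). Acsl1 (ENSMUSG00000018796), the synthetase that joins long-chain fatty acids to coenzyme A, went the other way, with 355, 489.8 and 488 CPM in Cre_negative libraries against 705, 613 and 641 CPM in Cre_positive libraries. It rose by 0.56 on the log2 scale (SE 0.13, adjusted p = 0.0368), and the call ended with any single Cre_positive library left out (adjusted p up to 0.129). Slc27a2, a fatty acid transport protein with synthetase activity, was at 2446 ± 306 and 2687 ± 113 CPM (SD, n = 3), with a log2 fold change of 0.14. Fabp1, the liver-type fatty acid binding protein, was scarce, with 38 to 115 counts a library, and its log2 fold change of -0.92 did not pass (adjusted p = 0.261).

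Per kilobase of merged exons and averaged over the 6 libraries, Slc27a2 had the highest level of the 34, at 684 CPM per kb. Ehhadh followed at 249.8 CPM per kb, then Etfb at 231 and Acaa2 at 209 CPM per kb. The lowest levels were those of Fabp1 at 2.13, Ppard at 5.66 and Ppara at 7.57 CPM per kb. The exon lengths come from GENCODE M21, an annotation of another build than the one the submitters name.

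Bdh1 (ENSMUSG00000046598), the mitochondrial enzyme that interconverts the ketone bodies acetoacetate and 3-hydroxybutyrate, rose. It had 102, 104 and 150.1 CPM in Cre_negative libraries against 189, 248 and 232 CPM in Cre_positive libraries. Each Cre_positive library exceeded every Cre_negative one, and the mean was 1.88 times the Cre_negative level (log2 fold change 0.91, SE 0.17, 95% interval 0.51 to 1.31, adjusted p = 0.0215). The call ended without Cre_negative replicate 1 or 2 and without Cre_positive replicate 2 or 3, with an adjusted p of at most 0.0872.

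Of the 5 other ketone body genes listed, 3 are described here, so their shared direction does not stand for the list. Oxct1 (ENSMUSG00000022186), the rate-limiting enzyme of ketone body use, rose from 674 ± 109 to 1185 ± 103 CPM (SD, n = 3), with a log2 difference of 0.81 (SE 0.13, adjusted p = 0.00755). Acat1, which joins or splits acetoacetyl-CoA, rose by 0.48 (SE 0.080, adjusted p = 0.0101) and Bdh2, a cytosolic hydroxybutyrate dehydrogenase, by 0.42 (SE 0.11, adjusted p = 0.0481). The call of Acat1 ended without Cre_positive replicate 3 and that of Bdh2 in 6 of 14 other settings, among them each Cre_positive library left out, Cre_negative replicate 1 or 3 left out and robust=FALSE.

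The 3 regulators were higher in every Cre_positive library than in any Cre_negative one, and Ppard passed. Ppard (ENSMUSG00000002250) had 24.7, 24.2 and 30.3 CPM in Cre_negative libraries against 65.7, 60.4 and 49.8 CPM in Cre_positive libraries. It rose 2.22 times (log2 fold change 1.15, SE 0.13, 95% interval 0.86 to 1.44, adjusted p = 0.00182), and the call held in all 14 other settings. Ppara (ENSMUSG00000022383) had 27.0, 24.4 and 24.9 CPM in Cre_negative libraries against 31.8, 30.5 and 35.7 CPM in Cre_positive libraries. The groups did not overlap, but the log2 fold change of 0.36 (SE 0.093, 95% interval 0.15 to 0.57) had an adjusted p of 0.0514. Ppargc1a (ENSMUSG00000029167) had 80.9, 76.5 and 77.1 CPM in Cre_negative libraries against 98.1, 93.1 and 88.7 CPM in Cre_positive libraries, with a log2 difference of 0.26 (SE 0.068, adjusted p = 0.0562), also without overlap. Ppara and Ppargc1a passed with DESeq2 and with the stricter filter on low counts, 1 CPM or more in 3 libraries (adjusted p down to 0.0172 and 0.0240). Over the 34 genes, 22 did not overlap between the genotypes, 17 below and 5 above. Of all genes tested, 29.7% did not overlap, 14.5% below and 15.2% above, so the 5 above are near the share of all genes.

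**Figure D3:**
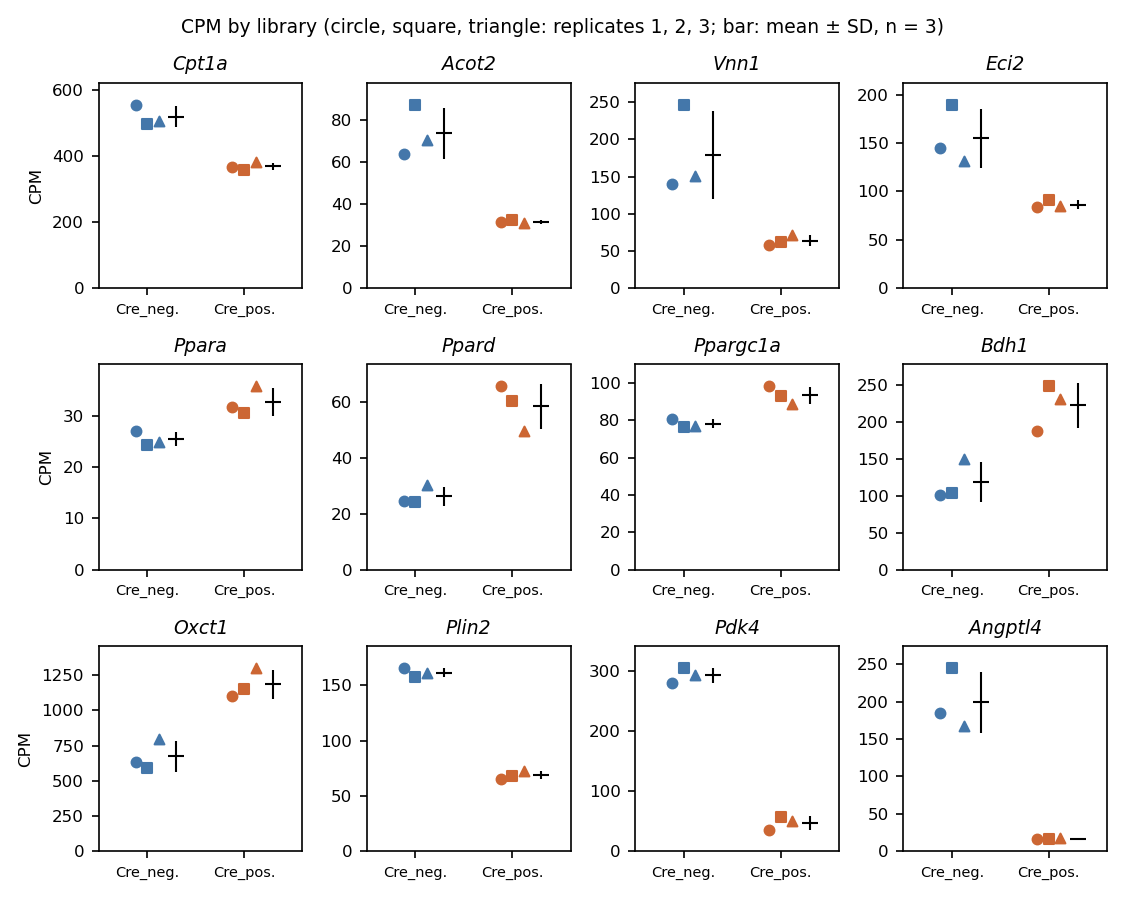
Each panel plots a gene's CPM in the 6 libraries, with circles, squares and triangles for replicates 1, 2 and 3 and a bar for the mean ± SD (n = 3). Cpt1a, Acot2, Vnn1 and Eci2 are lower and Ppara, Ppard, Ppargc1a and Bdh1 higher in every Cre_positive library; Oxct1 is higher, and Plin2, Pdk4 and Angptl4 are lower.

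The other targets of PPAR alpha, 31 genes that are no members of the set, had a lower median than the set itself. Of the 29 tested, 13 fell, none rose and 16 did not pass, with a median of -0.78, and 44.8% were called lower against 3.82% of all genes. Angptl4 (ENSMUSG00000002289), a secreted inhibitor of lipoprotein lipase, fell from 199 ± 40.8 to 16.4 ± 1.06 CPM (SD, n = 3), with a log2 difference of -3.61 (SE 0.15, adjusted p = 1.81e-05). Pdk4 (ENSMUSG00000019577), the kinase that shuts pyruvate out of oxidation when fatty acids are burned, fell from 293 ± 12.4 to 46.9 ± 11.2 CPM (-2.64, SE 0.17, adjusted p = 0.000288). Plin2 (ENSMUSG00000028494), the coat protein of lipid droplets, fell from 161 ± 4.21 to 68.5 ± 3.56 CPM (-1.24, SE 0.068, adjusted p = 4.36e-05). Cyp4a12b, a fatty acid hydroxylase, was at 20.8 ± 6.26 and 3.16 ± 0.467 CPM (-2.72, SE 0.24, adjusted p = 0.000679). These 4 calls held in all 14 other settings. The classical targets Cyp4a10 and Cyp4a14 did not pass, with log2 fold changes of -0.78 (adjusted p = 0.0964) and -0.64 (adjusted p = 0.279). Both had their highest level in Cre_negative replicate 2, at 1602 and 1612 CPM against 843 to 1127 and 671 to 926 CPM in the other Cre_negative libraries. Cyp4a10 passed with DESeq2 and without Cre_negative replicate 1.

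The remaining genes that were listed as mitochondrial split. Where each product works was not checked. Of 21, 5 rose, 4 fell and 12 did not pass, with a median of 0.07. These are 23.8% called higher and 19.0% called lower, against 3.73% and 3.82% of all genes tested. The highest calls belonged to enzymes that also serve amino acid and propionate breakdown: Pcca, a propionyl-CoA carboxylase subunit, rose by 0.66 (SE 0.070, adjusted p = 0.00154), Acadsb, for branched short chains, by 0.68 (SE 0.090, adjusted p = 0.00402) and the enoyl-CoA hydratase Echs1 by 0.53 (SE 0.080, adjusted p = 0.00669). Cpt1c, the brain-type relative of Cpt1a, fell by 1.33 on the log2 scale (SE 0.19, adjusted p = 0.00534) from a low 12.4 ± 2.46 CPM. These 4 were those with the smallest p among the 9 called. The carnitine genes Slc25a20, the acylcarnitine carrier, and Slc22a5, the carnitine importer, were named after their values were seen. They fell by 1.00 (SE 0.16, adjusted p = 0.0135) and by 0.51 (SE 0.089, adjusted p = 0.0124).

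Of 23 other peroxisomal genes, Abcd3, a transporter of the peroxisomal membrane, alone fell (-0.48, SE 0.10, adjusted p = 0.0251), none rose and 22 did not pass, with a median of -0.11. That is 4.35% called lower, near the 3.82% of all genes tested. That call ended with any single Cre_positive library left out (adjusted p up to 0.108). Of 29 other regulators and partners, Lpin1, a phosphatidate phosphatase and coactivator, alone fell (-0.42, SE 0.088, adjusted p = 0.0250), and its call ended without Cre_negative replicate 2 and with any single Cre_positive library left out. None of these rose, 28 did not pass, and the median was 0.10. The 3.45% called lower is below the share of all genes tested. Rxra, the main partner of PPAR alpha, was higher in every Cre_positive library, at 108 ± 5.04 and 122 ± 2.83 CPM, without passing (0.18, adjusted p = 0.144).

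**Figure D4:**
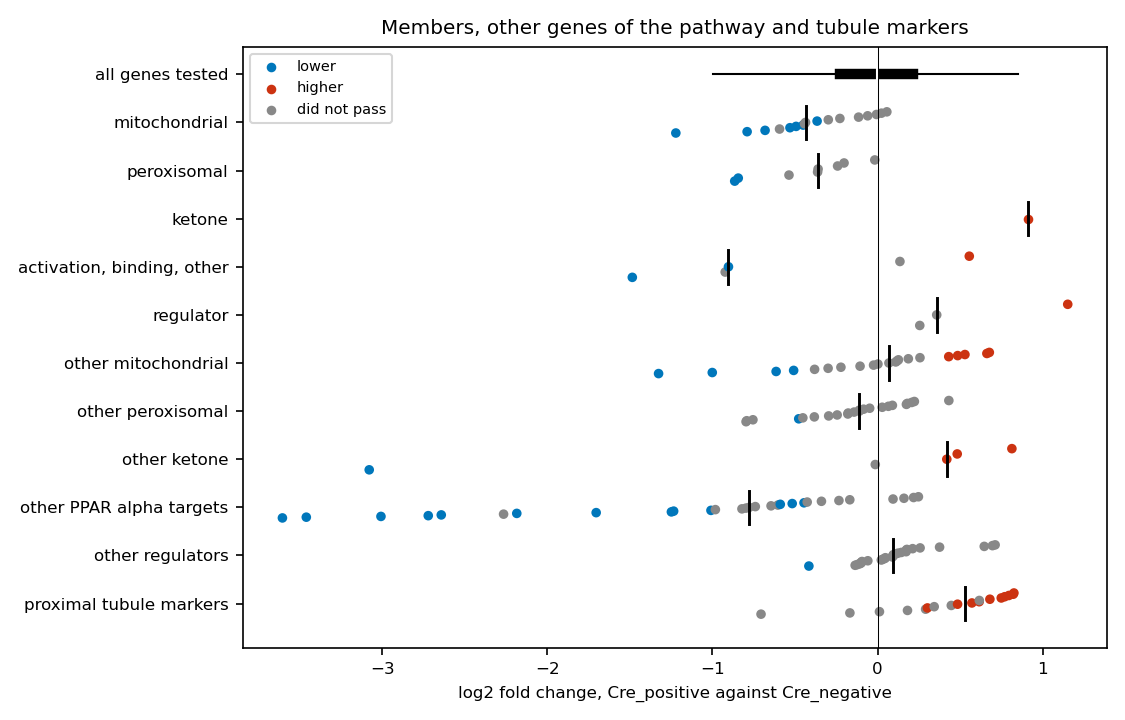
Points are the log2 fold changes of single genes by class, blue and red where called lower or higher and grey where not, with a black line at each class median; the top bar spans percentiles 25 to 75 of all genes tested and its line 5 to 95. The medians are -0.44 for mitochondrial members, -0.36 for peroxisomal members and -0.78 for the other PPAR alpha targets, against 0.53 for the proximal tubule markers.

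Some of these counts carry a limit from neighbouring genes. The strand setting of the counting is not given in the sources used here. In GENCODE M21, exons of Eci2, Hadha, Acsl1, Bdh1, Acadvl, Acaa1a, Acaa1b, Crat, Crot, Etfdh and Slc27a2 overlap those of a gene on the opposite strand, so reads from the partner may be included if strand was not used. Partner counts differed. Dlec1, the partner of Acaa1b, had 4338 to 5949 counts and was called higher. Myd88, the partner of Acaa1a, had 1126 to 1813 counts and was called lower. Garem2, the partner of Hadha, had at most 16 counts in any library. What these genes add to the counts of Acaa1a and Acaa1b was not tested.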

How the data were processed

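Polyadenylated RNA of 6 glomerular samples was sequenced as strand-marked read pairs, per the labels' protocols. The authors deposited whole-number read counts per Ensembl gene. The build GRCm39 and the tools edgeR, fastp, HISAT2 and StringTie come from the submitters' processing notes, which give no roles or order. Annotation release, strand setting and treatment of multiply matching reads are not stated in these sources. Each library held 53571438 counts or more, and the biological coefficient of variation was 21.5%. Over genes with at least 50 counts in all, the chi-square between any pair of libraries was at least 20.6 times its degrees of freedom, so none looked like a copy of another.

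Symbols came from a table covering 51880 of 57132 rows. Where a symbol had several rows, the one with most counts was taken. Counts were analysed in R 4.3.3 with edgeR 4.0.16: filterByExpr, TMM factors, the quasi-likelihood test with robust=TRUE, and Benjamini-Hochberg adjustment over the 19927 genes tested and a threshold of 0.05. CPM are scaled by TMM factors. A standard error is the size of the log2 fold change over the root of its F statistic. The gene lists were, like the members, chosen with earlier results of these data known. Values per library are given for called members, the regulators, Cpt1a and Bdh1. Of each other list, up to 4 called genes by smallest p and 6 further PPAR genes are named; some results under this rule are not reported here. Shared 100-base windows were counted over GENCODE M21 transcripts. Other settings were DESeq2 1.42.0, its size factors, upper-quartile factors, limma 3.58.1 voom (quality weights), other filters, robust=FALSE, a replicate block and each library left out.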

Additional observations from a re-analysis of the deposited data

How the results depend on the processing

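With DESeq2, 1267 genes were called higher and 1430 lower over all genes, against 743 and 762, and 5 members were called higher, against 3. The stricter filter, 1 CPM or more in 3 libraries, also gave 5 higher members. With single libraries left out, calls ranged from 204 to 987 higher and from 258 to 1052 lower over all genes, from 1 to 3 higher and from 4 to 14 lower among the members, and from 4 to 10 higher and from 9 to 21 lower among the other pathway genes (8 and 20 with all libraries). The lowest counts came without a Cre_positive library; without a Cre_negative library, which leaves as many samples, 477 to 987 genes were called higher and 551 to 1052 lower. The cause was not tested. The label numbers were not taken to pair the samples: deviations of same-numbered libraries from their group means correlated at 0.0173 to 0.0551, although each of the 3 Cre_negative libraries correlated best with the Cre_positive one of its own number. With the number as a replicate block, 737 genes were called higher and 804 lower, and among the members 2 were higher and 13 lower. The replicate block ended the calls of Hadhb, Pex11a and Acsl1, and Acadvl, Eci1, Etfb, Ech1 and Cyp4a10 passed with it. Between 10 and 15 members were called lower under the 8 settings that kept all libraries. No called gene among the members and the other pathway genes the rule names changed direction in any setting. The median over all genes moved by less than 0.01 on the log2 scale under each scaling. At this depth Fabp1, with 38 to 115 counts a library, is the member whose counts are fewest.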

Other observations

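Of the 13 other PPAR alpha targets that fell, uncoupling protein 2, an acyl-CoA synthetase and the smaller Cyp4a genes, fatty acid hydroxylases, were looked at after their values were seen. Ucp2, a mitochondrial carrier, was at 388, 427 and 265 CPM in Cre_negative and at 112, 112 and 107 CPM in Cre_positive libraries, with a log2 difference of -1.70 (SE 0.16, edgeR adjusted p = 0.00157). Cyp4a12a had a log2 fold change of -2.19 (adjusted p = 0.00208), Cyp4a32 one of -1.01 (adjusted p = 0.0268) and Cyp4a31 one of -0.59 (adjusted p = 0.0390). The Cyp4a genes are close copies of each other, so reads may be split between them. Acsl5, another acyl-CoA synthetase, fell by 0.45 on the log2 scale (SE 0.071, adjusted p = 0.00849), opposite in sign to Acsl1. The difference between those genes was not tested.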
